A study of Mus musculus with 15 samples.

Results

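GL7+ activated B cells were compared with naive B cells across 10531 genes. The comparison uses 6 of the 15 libraries of the study, 3 GL7+ and 3 naive, chosen by their labels and not by any measured value. The 10531 genes are those of the 21761 in the deposited table that reached 1 RPKM, which is reads scaled to gene length and library size, in at least 3 of these 6 libraries. All libraries were poly(A) RNA of splenic B cells from wild-type female C57BL/6J mice, and the age of the mice is not given in the sources used here. The naive group held CD43- cells labelled as unstimulated and untreated. The GL7+ group held CD43- cells cultured for 3 days with LPS, IL-2 and IL-5 and with DMSO, the solvent control for the H3K27 demethylase inhibitor GSK-J4, and then enriched with magnets for GL7. The labels number the mice, and mice 1, 2 and 3 each gave 1 library to both groups. Whether the naive cells spent any time in culture before their RNA was taken is not given, so culture, stimulation and enrichment cannot be told apart here.

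LPS is recognised on B cells by Toll-like receptors and drives them into growth, division, class switching and antibody secretion without T cell help. IL-2 and IL-5 act through receptors that signal to STAT5 and add to this response. GL7 is an antibody epitope on a sialic acid glycan that appears on activated and germinal centre mouse B cells. It has no transcript of its own. Resting B cells are held quiet by factors such as Klf2 and Foxo1, whereas the later passage to antibody secretion runs through Irf4, Prdm1 and Xbp1.

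Reads assigned to genes, recovered from the step between the lowest values, numbered 9806753 to 11519345 in the GL7+ libraries. In the naive libraries they numbered 13190001, 1318002 and 6175178. The second naive library was thus the shallowest of the 6, and 1 RPKM of a gene of median length stood for 3.56 reads there against 35.7 in the first. At that depth all 6324 values of up to 20 reads came out whole and 3783 of them odd, whereas a depth 2 times as large would make each of them even. Between 9996 and 10083 genes reached 1 RPKM in a GL7+ library and between 10227 and 10457 in a naive one. The 3 GL7+ libraries correlated at a Pearson r of 0.995 to 0.996 across genes, the naive ones at 0.975 to 0.992, and libraries of different groups at 0.776 to 0.798. Genes are not independent replicates, and these values only describe the libraries. B cell identity was checked with 8 markers. All were present in every library: Cd79a, a signalling chain of the B cell receptor, stood at 1154, 1659 and 1347 RPKM in naive and 604, 587 and 599 RPKM in GL7+ cells. Of the 8 markers 7 were lower in GL7+ cells and Blnk did not pass the test, and their sum was 3832 to 4476 RPKM in naive and 1938 to 2022 RPKM in GL7+ libraries.

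Most of the expressed genes differed between GL7+ and naive cells. Of the 10531 genes, 8693 (82.5%) passed the test, which was limma on log2(RPKM + 1) with an adjusted p under 0.05. They divided almost evenly, with 4340 higher (41.2%) and 4353 lower (41.3%) in GL7+ cells. Since so many genes passed, gene groups are also described by changes of at least 2-fold: 1743 genes were at least 2-fold higher (16.6%) and 1581 at least 2-fold lower (15%). These shares of all genes are the background for the counts of each gene list below. Folds are on the log2(RPKM + 1) scale and come out too small for genes near or below 1 RPKM. A gene under 1 RPKM in all libraries of a group passes the filter only through the other group, so its direction is fixed in advance. Of this kind were 294 genes at 1 RPKM or more only in GL7+ libraries and 456 only in naive ones. The median log2 change of all tested genes was -0.01, with quartiles at -0.65 and 0.67. A change of at least 16-fold was reached by 39 higher and 26 lower genes. In 61 genes the mean went from under 1 RPKM in naive to at least 10 RPKM in GL7+ cells, and in 40 genes it went the other way. Across all tested genes, whether or not they passed, 4275 had every GL7+ value above every naive value and 4313 had every GL7+ value below. Of the genes given below library by library, the groups overlapped for Actb and Eef1a1 and for no other. In these bulk libraries, fewer cells of a type and less RNA per cell cannot be told apart. Every value is relative to the RNA of its own library, so a change in total RNA per cell is not seen.

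**Figure D1:**
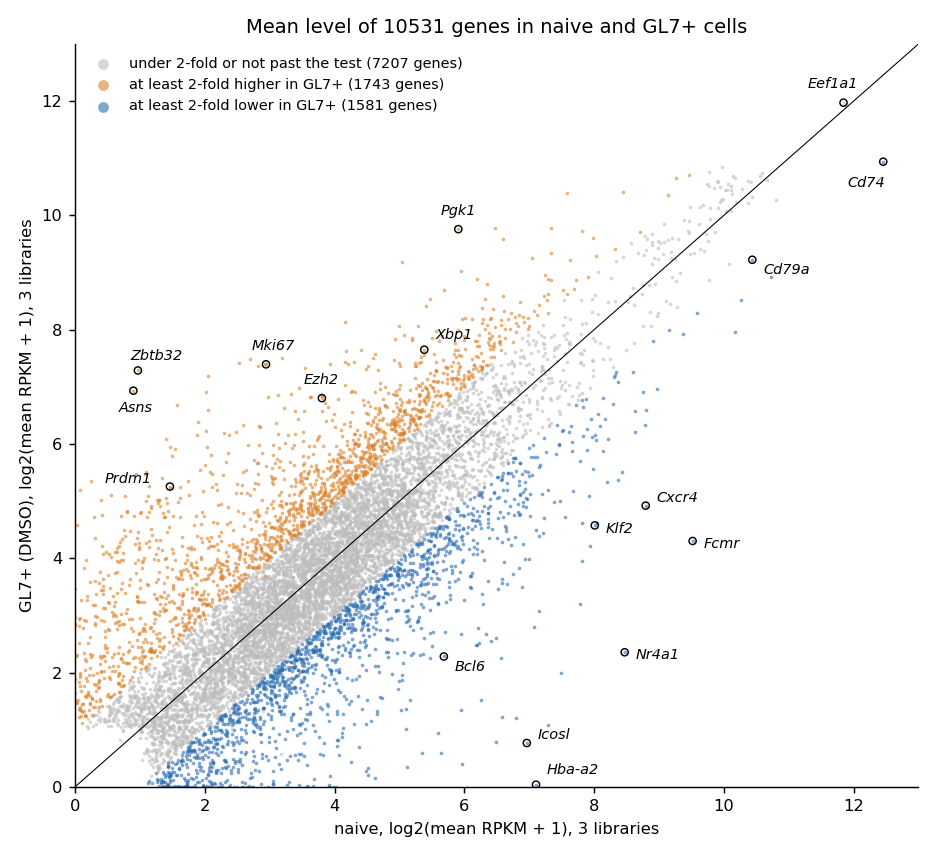
Mean log2(RPKM + 1) of 10531 genes in 3 naive libraries (x axis) and 3 GL7+ libraries (y axis); the line marks equal levels, orange points are the 1743 genes at least 2-fold higher and blue points the 1581 genes at least 2-fold lower. Zbtb32 and Asns lie far above the line and Icosl, Nr4a1 and Fcmr far below it.

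Named first are genes of the 15 largest changes in each direction among genes at 5 RPKM or more in the higher group and at least 200 bases long. The gene with the largest rise was Zbtb32, a zinc finger repressor known from activated B and plasma cells. It stood at 1.098, 0.813 and 0.955 RPKM in the naive and 149, 154 and 162 RPKM in the GL7+ libraries. Its 3 GL7+ values lay far above all naive values, with a log2 change of 6.32 ± 0.09 (SE; limma, adjusted p = 8.5e-17). Asns, which makes asparagine, came next, with 0.512, 1.57 and 0.504 RPKM against 116, 133 and 114 RPKM and a log2 change of 6.08 ± 0.15. Among the 15 largest rises were 8 genes of DNA copying and mitosis, of which Ube2c, Ccnb1, Ccna2, Rrm2 and Bub1 changed by 5.17, 5.12, 4.90, 4.89 and 4.57 on the log2 scale. The others of these 8 were Cks1b (4.55), Cdca3 (4.54) and 2810417H13Rik (4.80), the PCNA clamp associated factor that RefSeq calls Pclaf. Transporters stood beside them: Slc16a3, which exports lactate, rose by 5.12, and Slc7a3, which imports arginine and lysine, by 5.11. Fads2, a fatty acid desaturase, rose by 4.67. Cdkn2a, an inhibitor of the cell cycle, was close to absent from naive cells at 0.067, 0 and 0 RPKM, and reached 23.995, 23.3 and 21.9 RPKM in GL7+ cells. Its direction was thus fixed in advance by the filter.

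At the other end, the 2 largest falls were those of Hba-a2 and Hbb-bs, which encode globin chains (-7.07 and -6.24). Icosl, the ligand through which B cells engage ICOS on T cells, came next. It went from 110.4, 131 and 130.2 RPKM to 0.769, 0.58 and 0.753 RPKM, a log2 change of -6.19 ± 0.09. No GL7+ library reached 1 RPKM, so Icosl entered the test only through the naive libraries and its direction was fixed in advance. Nr4a1, an immediate early nuclear receptor, fell from 369, 327 and 366 RPKM to 4.31, 3.46 and 4.57 RPKM (-6.12 ± 0.08). Fcmr, the Fc receptor for IgM, was among the most abundant naive transcripts at 639, 842 and 717 RPKM and stood at 18.6, 19.3 and 18.2 RPKM in GL7+ cells (-5.21 ± 0.10). The urokinase receptor Plaur changed by -5.58, the signal regulators Rasgef1b and Rgs1 by -5.71 and -4.65, and the ubiquitin ligase Marchf1, which turns over MHC class II at the cell surface, by -4.76. Fosb, an AP-1 subunit (-5.51), Klf4, a factor that restrains division (-5.03), the elongation factor gene Ell3 (-4.76) and Gm6377 (-5.36) were also among the 15 largest falls. The others of these 15, Lyz2 (-5.55) and Tyrobp (-4.65), are known from myeloid cells. Like Icosl, the genes Hba-a2, Lyz2, Klf4, Ell3 and Rgs1 were under 1 RPKM in all GL7+ libraries, so their direction was fixed too.

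Markers of most other cell types had higher summed levels in the naive libraries, and their part in the falls was not tested. A marker close to 0 in GL7+ cells can pass the 1 RPKM filter only through the naive libraries, so counts of passing markers carry no weight and whole lists are described instead. Of 16 myeloid markers in the table, 15 had the higher mean in naive cells and 14 were under 1 RPKM on average in GL7+ cells. Their summed level was 108 to 162 RPKM in the naive and 10.7 to 14.3 RPKM in the GL7+ libraries. Lyz2, the myeloid lysozyme, was its largest single part, at 67.005, 44.7 and 73.3 RPKM in naive and 0.568, 0.143 and 0.25 RPKM in GL7+ cells, and its near-identical copy Lyz1 makes the division of reads between them uncertain. The complement genes C1qa and C1qc were at 12.6, 11.2 and 9.43 and at 16.3, 11.5 and 14.9 RPKM in the naive libraries. Both, and the LPS co-receptor gene Cd14 (3.24, 1.52 and 2.81 RPKM in naive), are listed at 0 in all 3 GL7+ libraries. Itgam and Cd68 did not pass the test, at means of 2.83 and 11.3 RPKM in naive against 2.71 and 8.94 RPKM in GL7+ cells. The 2 globin genes showed the same picture: Hba-a2 had 3148 reads in the 3 naive and 1 read in the 3 GL7+ libraries, and Hbb-bs had 2157 and 24. Globin genes are near-identical copies, so the division of reads among them is uncertain. All 11 erythroid and platelet markers had the higher mean in naive cells, with summed levels of 74.6 to 87.4 RPKM in naive and 5.82 to 7.30 RPKM in GL7+ cells. The platelet chemokine gene Ppbp is listed at 0 in the GL7+ libraries.

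T cell markers summed to 205 to 212 RPKM in naive and 60.4 to 67.8 RPKM in GL7+ cells, and 12 of 12 had the higher mean in naive cells. Most of that sum was Cd2, which mouse B cells also express (168, 166 and 174 against 58.2, 52.3 and 57.4 RPKM). Cd4 was at 2.94, 2.96 and 2.82 RPKM in the naive libraries and listed at 0 in 2 of the 3 GL7+ libraries. The T cell receptor chain genes Cd3d, Cd3e and Cd3g were under 1 RPKM on average in both groups. NK cell markers were low throughout, with sums of 6.24 to 10.5 and 0.331 to 0.476 RPKM. Of 10 dendritic cell markers 7 had the higher mean in naive cells, among them Itgax, Cd209a, Xcr1 and Clec9a, the last listed at 0 in all GL7+ libraries. Going the other way, Flt3, a receptor kinase (6.82, 4.56 and 7.66 against 32.6, 30.8 and 31.3 RPKM), and Bst2, an interferon-induced surface protein (21.5, 17.8 and 19.7 against 42.7, 44.3 and 42.5 RPKM), rose. Most of the summed level of 10 stroma and endothelium markers was Pecam1, which B cells also carry (76.2, 94.5 and 88.8 against 35.8, 34.1 and 33.97 RPKM).

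**Figure D2:**
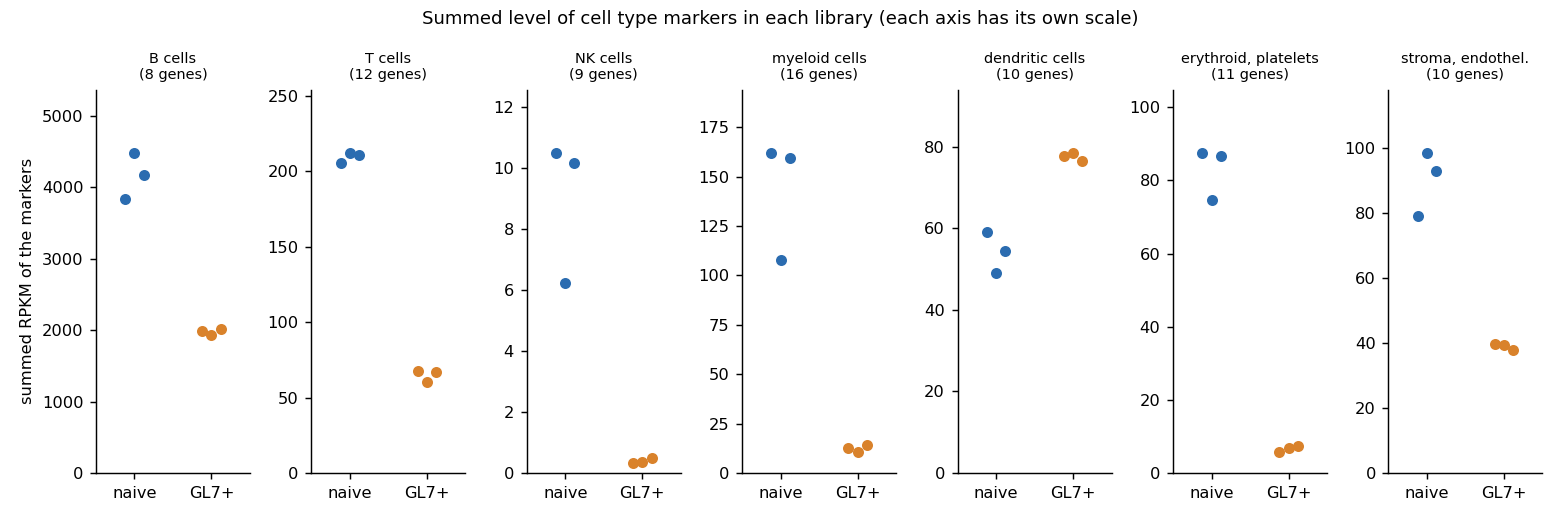
Summed RPKM (y axis, a separate scale for each panel) of the marker genes of 7 cell types in each naive (blue) and GL7+ (orange) library, 1 point a library. Myeloid, erythroid and NK marker sums are several times higher in every naive library, and the dendritic cell sum is higher in every GL7+ library.

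Genes of the B cell receptor and its co-receptors were mostly lower in GL7+ cells. Of 30 tested, 24 were lower and 2 higher, 16 of them at least 2-fold lower against a background of 15%, and the median log2 change was -1.09. Cr2, the complement receptor that lowers the threshold of the B cell receptor, went from 195, 219 and 241 RPKM to 8.198, 7.94 and 8.54 RPKM (-4.57 ± 0.08). Cd55, a complement regulator, and Fcer2a, the low affinity IgE receptor, changed by -3.85 and -2.92. The receptor's signalling chains Cd79a and Cd79b changed by -1.20 and -0.90. Cd24a, a small surface glycoprotein, rose by 0.95, with GL7+ values of 725, 727 and 748 RPKM above all naive values of 362, 369.8 and 404 RPKM. The inhibitory Fc receptor Fcgr2b was also higher (0.36), though not past the test after quantile normalization.

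Among 22 transcription factors of mature B cells, 15 were lower and 4 higher, 8 and 1 of them at least 2-fold, with a median log2 change of -0.88. Bcl6, the repressor that drives the germinal centre reaction, stood at 55.3, 41.3 and 54.6 RPKM in naive and 3.94, 3.72 and 3.91 RPKM in GL7+ cells (-3.39 ± 0.11; limma, adjusted p = 5.0e-13). Every GL7+ value was below every naive value. Pax5, which keeps B cell identity, was lower by a smaller step, from 317, 340.4 and 299 to 151, 137 and 151 RPKM (-1.12 ± 0.10). Bach2, a repressor of plasma cell differentiation, changed by -1.83, and Zfp318, which allows IgD to be made, by -3.65. Ets1, which restrains plasma cell formation, changed by -1.99 and Foxo1, a factor of resting lymphocytes, by -1.57. Going the other way were Pou2af1, the octamer coactivator OBF-1, from 235, 236 and 246 to 479, 493 and 474 RPKM (1.01), and the E protein gene Tcf4 (0.43).

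The list of quiescence and migration genes showed one of the lowest medians, a log2 change of -2.06. Of 29 tested, 28 were lower, 25 of them at least 2-fold, and 1 was higher. Klf2, which restrains proliferation and sets trafficking, went from 232, 241 and 298 to 22.2, 21.7 and 24.6 RPKM (-3.43 ± 0.12). Its target S1pr1, the receptor for exit from lymphoid tissue, went from 138, 122 and 143 to 6.65, 5.68 and 5.59 RPKM (-4.28). Cxcr4, the receptor for CXCL12, fell from 419, 476 and 435 to 31.4, 28.96 and 27.5 RPKM (-3.87 ± 0.06), and the glucocorticoid-induced Tsc22d3 from 132, 137 and 153 to 7.47, 8.25 and 6.5 RPKM. The single riser was Ddit4, an inhibitor of mTORC1, from 8.19, 6.304 and 7.98 to 40.3, 47.9 and 35.2 RPKM (2.31 ± 0.13). Of the 13 tested markers of marginal zone and follicular B cells, 11 were lower, 10 of them at least 2-fold, with a median of -2.20. The 2 higher members were Cd36, a scavenger receptor (20.7, 18.8 and 24.8 against 155, 159 and 159 RPKM), and Mzb1, an endoplasmic reticulum cofactor of antibody assembly (122, 131 and 138 against 626, 644 and 568 RPKM), which also belongs to the plasma cell genes.

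Genes of MHC class II antigen presentation fell together. Of 15 tested genes 13 were lower, all 13 at least 2-fold, and 1 was higher, with a median log2 change of -1.79. The list took 1.73%, 2.49% and 2.14% of assigned reads in the naive libraries and 0.597%, 0.610% and 0.621% in the GL7+ libraries. Cd74, the invariant chain and the most abundant naive transcript, went from 4118, 7271 and 5478 to 1923, 1951 and 2017 RPKM (-1.48 ± 0.14). H2-Oa and H2-Ob, which inhibit peptide loading, fell most (-3.39 and -2.86), and H2-DMb1, a chain of the loading catalyst, by -2.26. The class II transactivator Ciita was lower as well (-2.02), as was Rfx5 (-1.38), a subunit of the factor that binds class II promoters. Its partner Rfxap was slightly higher (0.44), a call lost with all libraries thinned to the shallowest depth. Class I presentation was more mixed, with 9 of 18 lower, 6 higher and a median of -0.28. At least 2-fold lower were 3 (16.7%), near the share of all genes. H2-D1 and H2-K1, the classical class I chains, changed by -0.89 and -0.85, and reads may be shared among such similar H2 genes. The proteasome activator Psme2 (0.52) and the immunoproteasome subunit Psmb8 (0.45) were higher, the latter not past the test after quantile normalization.

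The regulators of plasma cell differentiation divided. Prdm1, which encodes the repressor Blimp-1, was at 1.29, 2.402 and 1.57 RPKM in naive and 39.5, 35.8 and 36.2 RPKM in GL7+ cells, a log2 change of 3.81 ± 0.10 (limma, adjusted p = 6.2e-14). Xbp1, the transcription factor of the secretory program, rose from 45.1, 33.7 and 43.3 to 198, 209.6 and 192 RPKM (2.28 ± 0.09). All GL7+ values of both genes were above all naive values. Irf4 went the other way, from 218, 195 and 221 to 129, 128 and 125 RPKM (-0.72 ± 0.06; limma, adjusted p = 9.1e-09), as did Sdc1, the gene of CD138, which was low in both groups (4.72, 2.005 and 2.66 against 1.3, 1.54 and 1.26 RPKM). Of 21 tested plasma cell genes, 16 were higher and 3 lower, 15 of them at least 2-fold higher, with a median of 1.95. Jchain, which joins IgM and IgA units, changed by 2.78, Ppapdc1b, a lipid phosphatase, by 3.01 and Lman1, a cargo receptor for secretion, by 2.35. Immunoglobulin gene segments were not analysed here.

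Cells enriched for CD138, the surface marker of plasmablasts and plasma cells, came from DMSO cultures with the same stimuli, and their levels are set beside the GL7+ values with no test. Prdm1 averaged 128 RPKM in CD138+ against 37.2 RPKM in GL7+ cells, Xbp1 839 against 199.8, Jchain 1591 against 267 and Sdc1 32.6 against 1.37 (means of 3 libraries each). Irf4 averaged 350.4 RPKM in CD138+ cells, above both its naive mean of 211 and its GL7+ mean of 127 RPKM. Of the 3 groups, the GL7+ cells had the lowest Irf4. Il5ra, the IL-5 receptor chain, was also lowest in GL7+ cells, with means of 16.2, 3.95 and 15.1 RPKM in naive, GL7+ and CD138+ cells. Zbtb32 and Batf were highest in GL7+ cells: Zbtb32 averaged 155 RPKM there and 46.5 RPKM in CD138+ cells, and Batf 97.9 and 44.1.

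**Figure D3:**
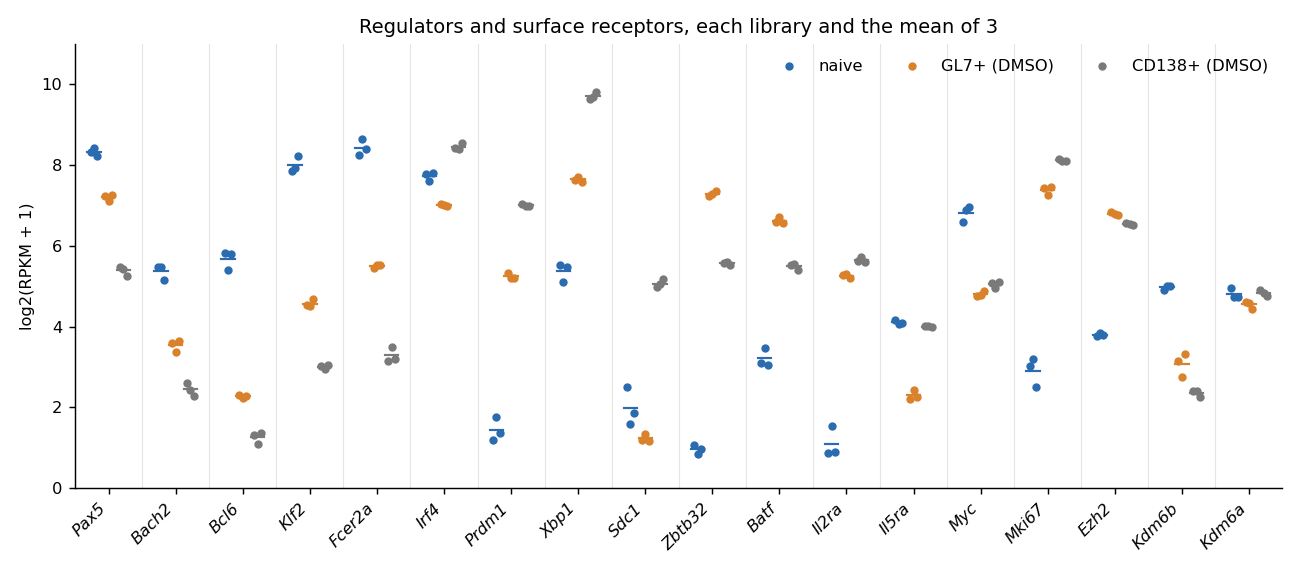
Log2(RPKM + 1) (y axis) of 18 regulators and receptors in each naive (blue), GL7+ DMSO (orange) and CD138+ DMSO (grey) library, with a bar at the mean of 3. Pax5, Bach2 and Bcl6 descend from naive to CD138+ cells, Prdm1 and Xbp1 ascend, and Zbtb32 and Batf are highest in GL7+ cells.

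Receptors for the stimuli moved in different directions. Of 25 genes of LPS sensing and Toll-like receptors, 16 were lower and 7 higher, 9 and 1 of them at least 2-fold, with a median of -0.78. Tlr4, the LPS receptor, went from 8.83, 7.102 and 8.34 to 4.45, 4.52 and 3.898 RPKM (-0.78 ± 0.09), and Cd180, its relative on B cells, from 128, 164 and 146 to 32.2, 32.6 and 36.8 RPKM (-2.07). Tlr1 (-2.13) and Tlr3 (-1.94) were lower too, while the adaptors Ticam2 (1.69) and Tirap (0.76) were higher. The IL-2 receptor alpha chain Il2ra was at 0.827, 1.89 and 0.867 RPKM in naive and 37.6, 38.5 and 36.1 RPKM in GL7+ cells (4.16 ± 0.12). Il5ra fell from 16.9, 15.8 and 15.998 to 3.62, 4.43 and 3.82 RPKM (-1.80 ± 0.07), and Csf2rb, the signalling chain it pairs with, rose (1.86). In the list of these receptors and the STAT5 pathway 12 of 20 were higher and 5 lower, 8 and 2 of them at least 2-fold, with a median of 0.38. The survival kinase Pim2, a known STAT5 target, went from 20.8, 14.1 and 16.03 to 202, 205 and 186 RPKM (3.48), and its relative Pim1 changed by 1.85. Jak2, a kinase of these receptors, was lower (-1.57).

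Immediate early genes, which respond to receptor signals without new protein synthesis, were lower in GL7+ cells. Of 24 immediate early genes 21 were lower, 16 of them at least 2-fold, and 3 higher, with a median of -1.49, and their share of reads went from 0.823% to 0.911% in naive to 0.271% to 0.309% in GL7+ libraries. Besides Nr4a1 and Fosb, the phosphatase gene Dusp1 changed by -3.05 and the mRNA decay factor Zfp36l1 by -2.21. Egr1 was an exception, at 82.9, 65.9 and 72.3 RPKM in naive and 241, 205 and 271 RPKM in GL7+ cells (1.68 ± 0.13), and the stress gene Gadd45b rose by 0.56. Of 24 NF-kB genes, 15 were lower and 4 higher (median -0.55). At least 2-fold lower were 7 (29.2%, against 15% of all genes). Nfkbid, an atypical inhibitor-like regulator, fell from 221, 211 and 243 to 23.8, 20.1 and 26.99 RPKM (-3.20), and the NIK kinase gene Map3k14 changed by -1.68. The subunit Nfkb1 (0.55) and the adaptor Traf1 (1.10) were higher.

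Surface molecules of activation showed no common direction, with 9 of 22 higher, 11 lower and a median of -0.28. At least 2-fold higher were 6 (27.3%) and lower 9 (40.9%), against 16.6% and 15% of all genes. Tfrc, the transferrin receptor, rose from 26.1, 21.4 and 22.1 to 83.4, 84.1 and 81.5 RPKM (1.80) and Slc3a2, the heavy chain of amino acid carriers, by 1.21. The costimulatory gene Cd80 changed by 1.43, whereas Cd86 did not pass the test, at means of 18.6 and 18.9 RPKM. Cd69, the early activation antigen, was lower (-1.39). Of 16 cytokine and chemokine genes 6 were higher and 9 lower, 5 and 6 of them at least 2-fold (31.25% and 37.5%, against 16.6% and 15% of all genes). Ccl22, which attracts T cells, rose from 1.42, 2.095 and 1.25 to 22.9, 23.4 and 29.6 RPKM (3.35), Il10, an anti-inflammatory cytokine, from 1.16, 0.581 and 1.74 to 11.8, 10.04 and 10.4 RPKM (2.47), and Il6 from 0.069, 0 and 0.098 to 2.68, 3.28 and 2.901 RPKM. Il1b went the other way, from 12.7, 9.83 and 12.4 RPKM in naive cells to 0, 0.018 and 0 RPKM in GL7+ cells, and it is known from myeloid cells as well. Il6 in naive and Il1b in GL7+ cells lay under 1 RPKM throughout, so the direction of both was fixed by the filter. Interferon response genes were mixed as well, with 13 of 36 higher and 19 lower (median -0.28). In each direction 8 changed at least 2-fold (22.2%, against 16.6% of all genes higher and 15% lower). Isg15, a ubiquitin-like modifier, rose from 7.12, 5.02 and 5.35 to 40.1, 40.9 and 35.7 RPKM (2.56), while Ifit3 fell from 6.22, 6.08 and 6.73 to 0.478, 0.306 and 0.664 RPKM (-2.31). Ifit3 thus passed the filter only through the naive libraries, with its direction fixed in advance. Both receptors for BAFF and APRIL that were tested rose, Tnfrsf13b (TACI) by 1.12 and Tnfrsf13c by 0.56.

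Class switching replaces the antibody's constant region by cutting and joining DNA. Of 29 genes of class switching and its repair, 21 were higher and 2 lower (median 0.51). At least 2-fold higher were 10 (34.5%, against 16.6% of all genes). Batf, a factor needed for switching, rose from 7.63, 10.1 and 7.34 to 95.5, 104 and 93.7 RPKM (3.41), the leucine zipper factor Nfil3 by 3.11, and the repair enzymes Exo1 and Ung by 2.71 and 1.64. Trp53bp1, which protects broken ends (-0.47), and the end-joining kinase Prkdc (-0.65) were lower.

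Among the enzymes that shape the GL7 glycan, by which the cells were enriched, Cmah, the hydroxylase that converts the sialic acid Neu5Ac to Neu5Gc and whose loss exposes the epitope, fell from 71.7, 64.8 and 59.7 to 27.2, 24.3 and 28.01 RPKM (-1.27 ± 0.07; limma, adjusted p = 2.5e-10). St6gal1, which adds the sialic acid of the epitope, was slightly higher, at 84.6, 94.7 and 84.4 RPKM in naive and 122, 127 and 116 RPKM in GL7+ cells (0.46 ± 0.06). B4galt1, which adds the galactose that carries it, rose from 27.8, 25.8 and 26.1 to 129, 134 and 119.6 RPKM (2.22) and the sialic acid synthase Nans by 1.65, while B4galt3 was lower (-1.06). Of the 15 genes on this list 6 were higher and 7 lower, with a median of -0.11. In each direction 3 changed at least 2-fold (20%, against 16.6% of all genes higher and 15% lower). Cmah averaged 46.7 RPKM in CD138+ cells, between its naive and GL7+ means of 65.4 and 26.5 RPKM.

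The cell cycle genes rose together. All 46 tested genes of G2 and mitosis were higher, 45 of them at least 2-fold against a background of 16.6%, with a median log2 change of 3.67, the highest of the 52 lists. Their share of assigned reads was 0.0897% to 0.0995% in the naive and 1.02% to 1.06% in the GL7+ libraries, 10.9 times as high on average. Mki67, the marker of dividing cells, was at 7.18, 8.21 and 4.68 RPKM in naive and 173, 154 and 175 RPKM in GL7+ cells (4.48 ± 0.13). Top2a, which untangles chromosomes, changed by 4.48 and the motor gene Kif4 by 4.02. The smallest rise was Cdc25b (0.66). In the S phase list 48 of 50 were higher and 1 lower, 42 of them at least 2-fold higher, with a median of 2.40. Rrm2, which makes deoxynucleotides, went from 5.22, 4.52 and 4.53 to 171, 171 and 167 RPKM, the helicase gene Mcm3 from 22.4, 21.3 and 21.996 to 159.7, 164 and 165 RPKM (2.84) and Cdc45 from 2.901, 3.19 and 2.87 to 50.4, 47.9 and 46.8 RPKM (3.63). Cdt1, which loads the helicase, was the exception, at 21.6, 19.7 and 22.4 RPKM in naive and 17.9, 18.9 and 18.3 RPKM in GL7+ cells (-0.20 ± 0.07). That small fall passed the test in 15 of 20 alternative fits and not in the other 5, with adjusted p (limma) from 9.0e-04 to 0.3.

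Promoters of these 2 lists were read from RefSeq windows of 300 bases, 250 before to 50 after a gene's start, on GRCm38.p6. The files' own build is mm9, so these windows serve for sequence only. The E2F motif was searched as TTTCCCGC and TTTGGCGC, the CHR element of late cell cycle genes as TTTGAA and the NF-Y box as CCAAT, each on both strands. An E2F match lay in 26.1% of 46 windows of the S phase list, in 4.76% of 42 windows of the mitosis list, in 3.13% of 10636 windows of tested genes and in 1.57% of all 32851 windows. A CHR match lay in 76.2% of mitosis windows, 17.4% of S phase windows, 12.4% of windows of tested genes and 17.9% of all windows. A CCAAT lay in 81.0%, 50%, 38.4% and 37.4% of them. A match is only a run of letters and not a measured binding site. The 4 windows printed are examples picked for their motifs, 2 from each list. They belong to members with the largest rises among those with an E2F match (S phase) or with both a CHR and a CCAAT match (mitosis). Windows of a single chromosome were left out of the choice. Each runs 5′ to 3′. Capitals mark only E2F matches in Cdc6 and Mcm3, so the CCAAT matches that Mcm3 also holds stay in lower case. In Ube2c and Cdca3 capitals mark CHR and CCAAT matches.
Cdc6, chr11:98907901-98908200, plus strand: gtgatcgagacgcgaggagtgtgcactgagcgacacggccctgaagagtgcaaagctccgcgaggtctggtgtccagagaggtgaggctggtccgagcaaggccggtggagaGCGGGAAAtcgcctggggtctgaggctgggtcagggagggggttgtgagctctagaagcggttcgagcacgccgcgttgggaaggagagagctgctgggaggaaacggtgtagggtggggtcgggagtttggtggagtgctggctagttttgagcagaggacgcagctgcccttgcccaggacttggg
Mcm3, chr1:20820263-20820562, minus strand: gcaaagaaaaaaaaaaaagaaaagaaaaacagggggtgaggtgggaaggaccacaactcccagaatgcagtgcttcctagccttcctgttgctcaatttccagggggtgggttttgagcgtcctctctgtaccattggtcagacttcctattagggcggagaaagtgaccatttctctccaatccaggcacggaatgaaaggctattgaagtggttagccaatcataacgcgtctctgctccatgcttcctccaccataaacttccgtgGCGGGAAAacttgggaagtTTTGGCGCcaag
Ube2c, chr2:164769679-164769978, plus strand: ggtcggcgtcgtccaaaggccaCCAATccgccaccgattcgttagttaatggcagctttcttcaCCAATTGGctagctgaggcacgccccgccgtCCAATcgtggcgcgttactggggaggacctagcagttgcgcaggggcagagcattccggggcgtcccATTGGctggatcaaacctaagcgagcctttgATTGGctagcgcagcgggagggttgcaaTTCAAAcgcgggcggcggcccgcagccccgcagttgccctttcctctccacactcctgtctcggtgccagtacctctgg
Cdca3, chr6:124829926-124830225, plus strand: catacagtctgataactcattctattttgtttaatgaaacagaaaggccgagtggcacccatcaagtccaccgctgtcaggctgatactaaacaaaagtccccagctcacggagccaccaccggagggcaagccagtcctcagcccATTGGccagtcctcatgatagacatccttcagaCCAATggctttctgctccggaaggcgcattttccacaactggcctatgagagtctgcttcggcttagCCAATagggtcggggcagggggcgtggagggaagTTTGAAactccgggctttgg
In Cdc6 the match begins 138 bases before the start, whereas both matches of Mcm3 lie after it, at bases 20 and 39. Cdc6, which loads the replicative helicase, went from 0.505, 0.743 and 0.602 to 18.7, 18.2 and 18.8 RPKM (3.60 ± 0.06). All its naive values lay under 1 RPKM, so its direction was fixed in advance by the filter. Ube2c, which feeds ubiquitin to the anaphase promoting complex, went from 3.03, 3.98 and 2.38 to 136, 151 and 149 RPKM, and its window holds 6 CCAAT matches and 1 CHR match. Cdca3, a trigger of mitotic entry, went from 2.7, 3.57 and 3.16 to 91.3, 96.5 and 97.9 RPKM. The E2F share was 5.05% in windows of genes at least 2-fold higher and 1.83% in those at least 2-fold lower.

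Entry into the cycle was represented by cyclins and E2F factors. Of 22 tested, 17 were higher and 4 lower, 10 and 1 of them at least 2-fold (median 0.93). Ccnd2, the main D cyclin of B cells, rose from 20.2, 14.3 and 16.1 to 172, 168 and 174 RPKM (3.28), whereas Ccnd1 fell from 5.94, 5.58 and 5.27 to 0.201, 0.11 and 0.086 RPKM (-2.54). Ccnd1 passed the filter only through the naive libraries, so its direction was fixed in advance. Tfdp1, the partner of E2F, rose by 3.20, the repressor E2f8 by 3.80 and Cdk4 by 1.64, and the pocket protein gene Rbl2 was lower (-0.70). Inhibitors of cyclin-dependent kinases were higher in 5 of 7 cases, all 5 at least 2-fold (71.4%, against 16.6% of all genes). Cdkn2a among them passed the 1 RPKM filter only through the GL7+ libraries, so its direction was fixed in advance. The same holds for any other of the 5 that stayed under 1 RPKM in all naive libraries, so this count carries no weight. The share of reads of the list hardly differed, at means of 0.0251% in naive and 0.0248% in GL7+ libraries. Besides Cdkn2a the higher members were Cdkn3 (3.04), Cdkn2b (1.86), Cdkn2c (1.84) and Cdkn1a (2.10). Cdkn1b, which holds resting cells in G1, was lower, at 52.4, 46.8 and 44.9 RPKM in naive and 26.2, 25.6 and 24.5 RPKM in GL7+ cells (-0.89 ± 0.10).

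**Figure D4:**
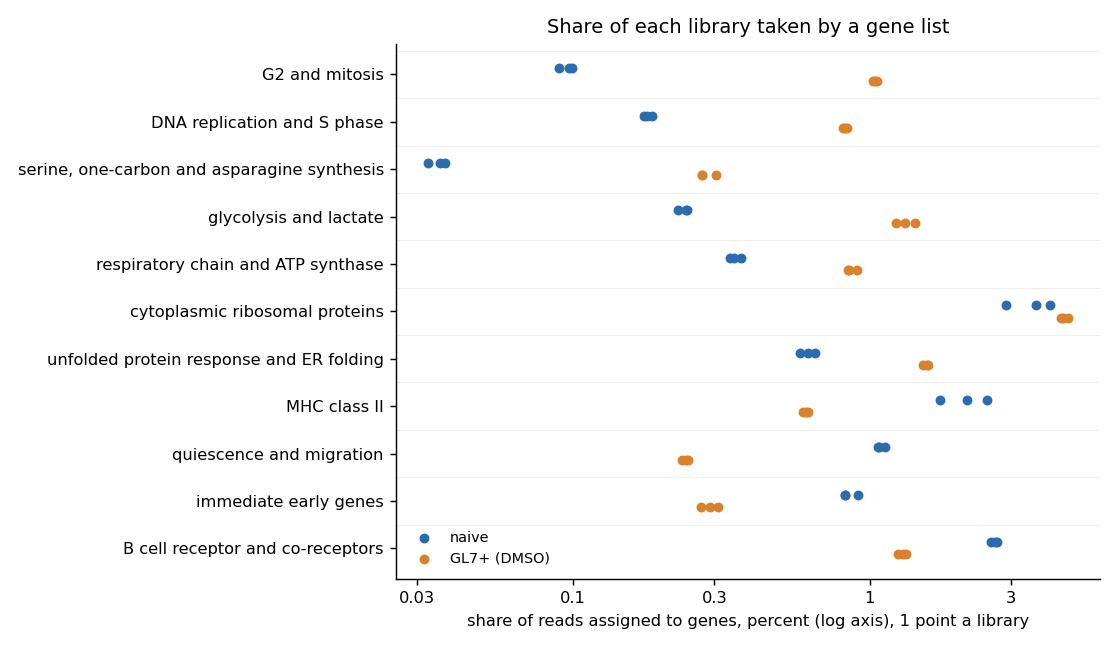
Share of the reads assigned to genes (x axis, percent, log axis) taken by 11 gene lists in each naive (blue) and GL7+ (orange) library. Mitosis genes move from about 0.0954% to 1.04% of reads on average and the glycolysis and lactate list from 0.237% to 1.32%, while MHC class II genes move from 2.12% to 0.609%.

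Most growth genes rose while Myc, their best known activator, fell. Myc stood at 96.3, 117 and 124 RPKM in naive and 25.97, 26.6 and 28.5 RPKM in GL7+ cells, a log2 change of -2.01 ± 0.09 (limma, adjusted p = 1.5e-11). Of the 16 genes of the MYC network and polyamine synthesis, 9 were higher and 6 lower. At least 2-fold changed were 5 and 4 of them (31.25% and 25%, against 16.6% and 15% of all genes). Srm, which makes spermidine, rose from 16.7, 15.997 and 17.9 to 121, 137 and 131 RPKM (2.87), the growth regulator Pa2g4 by 1.90 and the pyrimidine enzyme gene Cad by 1.78, while Mnt, which opposes MYC, fell (-1.57). Ribosome biogenesis factors were higher in 34 of 35 cases, 20 of them at least 2-fold (median 1.15). The nucleolar proteins Nop58, Nop16 and Fbl changed by 1.71, 1.75 and 1.21, and Ubtf, a factor of rRNA transcription, was slightly lower (-0.22). Cytoplasmic ribosomal protein genes moved by less: 40 of 50 were higher and 2 lower, none by 2-fold, with a median of 0.37. Rplp0 rose most, from 737, 977 and 917 to 1682, 1781 and 1737 RPKM (0.99). Rps27, a short gene, was lower (677, 1542 and 1013 against 549, 582 and 568 RPKM) with the highest value in the shallowest naive library. The other lower member was Fau, a fusion of a ubiquitin-like protein with a ribosomal protein (-0.27), whose call was lost in 7 of 20 alternative fits, also without the shallowest library. Reads of ribosomal protein genes can be shared with their pseudogenes, so single members are uncertain.

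Genes of amino acid supply were higher at several steps. All 20 cytosolic aminoacyl-tRNA synthetases were higher, 16 of them at least 2-fold (median 1.62), with Gars, Aars and Nars at 2.63, 2.54 and 2.36. Of 14 amino acid carriers 11 were higher and 2 lower, 6 and 1 of them at least 2-fold (42.9% and 7.14%, against 16.6% and 15% of all genes). Slc7a5, the large neutral amino acid carrier, went from 10.5, 10.2 and 11.2 to 149, 174 and 155 RPKM (3.78), and Slc38a9, a lysosomal arginine sensor, was lower (-1.13). Synthesis of serine, one-carbon units and asparagine was higher in 13 of 14 genes, 12 of them at least 2-fold (median 2.64), and the list took 8.05 times the share of reads. Psat1, of serine synthesis, rose from 8.97, 6.68 and 8.78 to 176, 198 and 171 RPKM (4.33 ± 0.08). The mitochondrial folate enzymes Shmt2 and Mthfd2 changed by 2.90 and 3.56, and Amt, of glycine breakdown, was lower (-0.70), a call lost in the thinned libraries. Atf4, which activates many of these genes, rose from 150.3, 153 and 161 to 304, 329 and 307 RPKM (1.01). In its list 9 of 14 were higher, all 9 at least 2-fold (64.3%, against 16.6% of all genes), and 5 lower. Members under 1 RPKM in all naive libraries entered the test only through the GL7+ libraries, so their direction was fixed in advance, which limits this count. Cth, which makes cysteine, Trib3 and Chac1 changed by 4.44, 3.47 and 3.09, but the stress genes Ppp1r15a (-0.86) and Eif2ak3 (-0.37) were lower. Purine and pyrimidine synthesis was higher in 19 of 21 genes, 16 of them at least 2-fold (median 1.49), among them Impdh2 (1.91), Ctps (1.87) and Paics (1.70), whereas the isoform gene Ctps2 was lower (-1.10).

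Genes of energy metabolism were higher too. Of 28 genes of the glycolysis and lactate list, 23 were higher and 4 lower, 21 of them at least 2-fold higher, with a median of 2.46. The list also holds Hif1a, Vegfa, Egln1, Egln3 and Bnip3, which are not glycolytic enzymes. Their share of reads was 0.226% to 0.243% in the naive and 1.22% to 1.42% in the GL7+ libraries. Tpi1 went from 29.2, 31.8 and 35.1 to 575, 644 and 522 RPKM (4.14 ± 0.10), Pgk1 from 57.1, 55.2 and 64.7 to 879, 931 and 787 RPKM (3.85) and Pkm, which makes pyruvate, from 89.2, 103 and 96.4 to 756, 821 and 719.7 RPKM (2.98). The second GL7+ library was the highest for these 3 genes. Pdk2, which blocks pyruvate entry into mitochondria, and Pfkfb4 were lower (-1.58 and -1.10). The pentose phosphate genes were all higher (7 of 7, median 0.86), led by Tkt (1.65), with 3 at least 2-fold higher (42.9%, against 16.6% of all genes). So were the 25 of the citric acid cycle (median 1.00, 13 at least 2-fold), the 51 of the respiratory chain and ATP synthase (median 1.25, 40 at least 2-fold) and the 42 mitochondrial ribosomal proteins (median 1.12, 28 at least 2-fold). Cytochrome c, from Cycs, rose from 17.8, 18.1 and 19.8 to 65.2, 67.8 and 64.5 RPKM (1.77), and Atp5b, the catalytic subunit of ATP synthase, from 239, 249.9 and 263 to 754, 805 and 760.4 RPKM (1.62).

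Genes of lipid synthesis rose and those of cholesterol export fell. Of 33 genes of cholesterol and fatty acid metabolism, 31 were higher and 2 lower, 28 of them at least 2-fold higher, with a median of 2.06. Cyp51, of the late sterol pathway, went from 11.6, 11.9 and 10.97 to 110.1, 114 and 113 RPKM (3.18 ± 0.04). Sqle, the squalene epoxidase, changed by 3.19 and the desaturase gene Scd2 by 3.08. The 2 lower genes were the cholesterol exporters Abca1, from 34.2, 37.1 and 28.2 to 0.998, 1.005 and 1.04 RPKM (-4.07 ± 0.10), and Abcg1 (-1.26).

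Genes of the secretory pathway were higher in GL7+ cells. Of 31 genes of the unfolded protein response and protein folding in the endoplasmic reticulum, 28 were higher and 1 lower, 22 of them at least 2-fold higher (median 1.31). Derl3, of the disposal of misfolded proteins, went from 5.15, 3.09 and 3.74 to 51.1, 50.1 and 49.7 RPKM (3.38 ± 0.10), and Sdf2l1, of a chaperone complex, from 11.4, 11.6 and 15.6 to 113, 120.2 and 111 RPKM (3.07). The folding factors Manf and Creld2 changed by 2.38 and 2.12. Dnajb9, a cochaperone known as a target of Xbp1, went against the list, from 82.4, 109.8 and 87.4 to 43.2, 36.3 and 41.7 RPKM (-1.18 ± 0.11). In CD138+ cells Derl3 averaged 175 and Creld2 383 RPKM against 50.3 and 100.4 RPKM in GL7+ cells. Translocation, glycosylation and vesicle coat genes were higher in 51 of 54 cases, 33 of them at least 2-fold (median 1.22), with the coat gene Sec24d at 1.59, 1.65 and 1.56 RPKM in naive and 25.4, 25.4 and 24.98 RPKM in GL7+ cells (3.34), and Ssr2 and Stt3a at 2.16 and 1.64. Golga2 was lower (-0.36).

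The endoplasmic reticulum stress element, bound by ATF6 with NF-Y, was searched in the same promoter windows as CCAAT followed after 9 bases by CCACG, on either strand. It was found in 34.5% of 29 windows of this list, in 0.160% of windows of tested genes, in 0.119% of all windows and in none of the 46 S phase or 42 mitosis windows. Each such match contains a CCAAT, which lay in 72.4% of the windows of the list. The 2 windows printed, 5′ to 3′, belong to members with the largest rises that hold a match, with the element in capitals. The same chromosome as above was left out of the choice.
Derl3, chr10:75893148-75893447, plus strand: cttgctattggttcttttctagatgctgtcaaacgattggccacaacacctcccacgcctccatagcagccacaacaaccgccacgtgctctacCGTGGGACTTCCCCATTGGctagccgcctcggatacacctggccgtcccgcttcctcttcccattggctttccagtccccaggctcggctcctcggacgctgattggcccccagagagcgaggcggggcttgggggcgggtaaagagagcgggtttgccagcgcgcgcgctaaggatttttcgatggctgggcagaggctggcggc
Pdia6, chr12:17266339-17266638, plus strand: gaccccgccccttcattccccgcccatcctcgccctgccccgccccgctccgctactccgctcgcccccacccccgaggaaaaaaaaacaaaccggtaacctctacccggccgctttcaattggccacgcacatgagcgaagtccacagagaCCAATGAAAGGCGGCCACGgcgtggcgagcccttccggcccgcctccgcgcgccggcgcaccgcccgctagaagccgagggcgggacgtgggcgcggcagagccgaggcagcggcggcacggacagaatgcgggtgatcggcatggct
The match begins 156 bases before the start in Derl3 and 98 bases before it in Pdia6, a disulfide isomerase that went from 48.7, 41.6 and 52.7 to 223, 232 and 209.5 RPKM (2.20 ± 0.07).

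Proteasome genes rose throughout. All 35 tested genes of the proteasome list, which also holds the transcription factor gene Nfe2l1, were higher, 30 of them at least 2-fold (median 1.42). Psmd1, of the regulatory particle, went from 30.7, 27.7 and 31.2 to 105, 107 and 101 RPKM (1.78), and the core subunits Psma4 and Psma5 changed by 1.72 and 1.75. Of 35 lysosome and autophagy genes, 20 were lower and 7 higher (median -0.26). At least 2-fold lower were 7 (20%), close to the 15% of all genes. Ctss, the cathepsin that cuts the invariant chain, fell from 364, 394 and 408 to 155, 152 and 148 RPKM (-1.35), and the lysosomal Ctsa and Mcoln1 changed by -1.34 and -1.38. Gabarapl1, of autophagosomes, rose by 1.14. Iron genes were lower in 8 of 13 cases and higher in 4, Tfrc among the latter. At least 2-fold lower were 4 (30.8%) and higher 2 (15.4%), against 15% and 16.6% of all genes. Slc40a1, the iron exporter ferroportin, was at 7.47, 3.81 and 5.02 RPKM in naive cells and listed at 0 in 2 GL7+ libraries. It is known from macrophages as well, and the myeloid marker sum was higher in the naive libraries. The part of such cells in its fall was not tested.

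Survival and death genes moved in both directions, with 12 of 25 members of the BCL2 list higher and 8 lower (median 0.12). At least 2-fold higher were 5 (20%) and lower 2 (8%), against 16.6% and 15% of all genes. Bcl2l1, the survival factor Bcl-xL, went from 1.23, 0.878 and 1.499 to 17.1, 19.3 and 15.6 RPKM (3.06 ± 0.11). The killer gene Bbc3 (PUMA) rose as well, from 1.42, 1.54 and 1.31 to 13.3, 15.7 and 15.1 RPKM (2.69), whereas Pmaip1 (NOXA) was lower (-1.45). Of 22 p53 genes and targets 13 were higher and 7 lower, 9 and 4 of them at least 2-fold (40.9% and 18.2%, against 16.6% and 15% of all genes). Gtse1, a mitotic regulator of p53, changed by 3.68, and the p53 target Ccng1 by 1.79. The antiproliferative Btg2 and the kinase gene Plk2 fell by different steps, from 122, 114 and 109 to 27.5, 25.3 and 26.2 RPKM and from 45.05, 40.3 and 44.2 to 4.01, 3.58 and 3.76 RPKM (-2.09 and -3.21).

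H3K27 methylation is a repressive chromatin mark that Polycomb enzymes write and KDM6 demethylases remove, and GSK-J4 inhibits the latter. All cells compared here were without the inhibitor. Kdm6b, the inducible H3K27 demethylase, fell from 29.05, 31.4 and 31.2 to 7.85, 5.73 and 9.05 RPKM (-1.90 ± 0.11; limma, adjusted p = 3.8e-10). Kdm6a, the other H3K27 demethylase, changed little, from 29.95, 25.8 and 25.7 to 23.6, 23.2 and 20.8 RPKM (-0.26 ± 0.08; limma, adjusted p = 0.0095), and did not pass with the first naive library left out, with the third GL7+ library left out or with all libraries thinned to 1 depth. Over 20 alternative fits its adjusted p (limma) ran from 4.0e-04 to 0.062. The methyltransferase gene Ezh2 rose from 12.7, 13.3 and 12.9 to 114, 109.7 and 109 RPKM (3.00 ± 0.04; limma, adjusted p = 6.6e-17). Its relative Ezh1, known from resting cells, fell from 20.2, 21.3 and 18.9 to 5.098, 4.63 and 4.62 RPKM (-1.87 ± 0.07). The groups did not overlap in any of these 4 genes. In CD138+ cells the means were 4.12 RPKM for Kdm6b, 27.7 for Kdm6a, 92.1 for Ezh2 and 4.59 for Ezh1.

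Across the 31 genes of Polycomb and the H3K27 demethylases 14 were higher and 15 lower, and the median was -0.01. At least 2-fold higher were 6 (19.4%) and lower 7 (22.6%), against 16.6% and 15% of all genes. Core members of the second complex rose: Suz12 by 1.29, the histone-binding Rbbp7 by 1.64 and Eed by 0.46. The accessory Phf19 rose (1.96) while its relative Phf1 fell from 31.3, 29.1 and 35.4 to 2.78, 3.11 and 2.81 RPKM (-3.07 ± 0.13). Cbx7, a reader of the mark in the first complex, fell from 33.6, 33.6 and 33.8 to 7.11, 6.28 and 7.42 RPKM (-2.13). Of 18 genes tested from the list of other JmjC demethylases, 11 were lower and 2 higher (median -0.37). Not all are demethylases, as the list also holds the kinase gene Riok3 and the hydroxylase gene Hif1an. At least 2-fold lower were 3 (16.7%), near the share of all genes. Kdm7a, which acts on H3K9 and H3K27, and Kdm2a, which acts on H3K36, fell most (-2.21 and -1.51). Jmjd1c (-1.04) and Kdm3b (-0.97), both of the H3K9 demethylase family, were also lower. The 2 higher members, Riok3 and Jmjd6, rose by 0.21 and 0.26 and lost their calls in 8 and 1 of 20 alternative fits, Riok3 also without the shallowest naive library. Of 14 DNA methylation genes 5 were higher and 6 lower, 3 and 1 of them at least 2-fold (21.4% and 7.14%, against 16.6% and 15% of all genes). Uhrf1 and Dnmt1, which copy methylation to new strands, rose by 3.86 and 1.38 and the glycosylase gene Tdg by 1.62, while the dioxygenase gene Tet3 fell (-1.57).

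The most abundant transcripts moved in both directions. Eef1a1, the elongation factor, was at 2715, 4678 and 3640.3 RPKM in naive and 3921, 4040.4 and 4094 RPKM in GL7+ cells and did not pass the test (0.16 ± 0.14; limma, adjusted p = 0.28). Actb, the cytoskeletal actin, did not pass either (1295, 1903 and 1688 against 1496, 1569.9 and 1653 RPKM). Their naive values spread more widely than their GL7+ values, and the first naive library was the lowest in both. Their calls depended on the fit. Eef1a1 passed as higher with quantile normalization (log2 change 0.69), with library weights (0.22) and without the shallowest naive library in the full fit (0.35), but not in the fit of the 5 other libraries alone. Actb passed as lower with quantile normalization (-0.17) and without the first naive library (-0.19). Ptma, a nuclear protein of growing cells, rose from 880.4, 1166 and 964 to 1799, 1869.5 and 1864 RPKM (0.89), and Tmsb4x, which binds actin monomers, fell from 1486, 2008 and 1865 to 1204, 1226 and 1287 RPKM (-0.52).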

How the data were processed

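Poly(A) RNA of 15 libraries was sequenced after KAPA mRNA HyperPrep preparation, per the labels' protocols. The deposited unit is RPKM per gene in 1 table for all libraries. Reads were aligned with TopHat2 and mm9 is the build, per the submitters' processing notes, and the sources used here do not name the counting tool, the annotation or the use of strand. Overlapping and antisense genes therefore cannot be told apart. The deposited RPKM values times gene length sum to the same total in every library, so they are relative to the reads assigned to genes. Whole reads were recovered from the step between low values: 99.9% to 100% of the values up to 20 reads came out whole within 0.1 read in each library. The 21761 genes hold 92 without a symbol, which stayed in the fit, and 27 symbols in the form of dates, which were repaired. RefSeq GRCm38.p6 matched 21615 gene identifiers.

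The log2(RPKM + 1) values were fitted in R 4.3.3 by limma 3.58.1, with all 15 libraries in 1 fit, a mean per group and a variance trend, and Benjamini-Hochberg adjustment over the 10531 genes at 1 RPKM or more in at least 3 of the 6 libraries compared. The threshold was an adjusted p under 0.05. The fit was first run on simulated data in which only a small part of the genes changed and all libraries had the same spread. That setting differs from the data here, so the run does not bear on the counts reported. Replicates are separate mice per the labels. Mice 1, 2 and 3 supplied both groups, so the numbers pair the samples, and the deviations of the same mouse correlated at 0.108, 0.078 and 0.028 across genes against -0.147 to 0.0541 for other pairs. The main fit has no block for mouse. One column of the CD138+ GSK-J4 group matched the group only and entered as a library of no known mouse. Summaries and figures used python 3.11.15, pandas 2.3.3 and matplotlib 3.10.9. No interval for counting error was computed.

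Members and lists were chosen with earlier results of these data known. Named genes were the 15 largest changes in each direction (5 RPKM or more on average where higher, no overlap, 200 bases or longer), up to 4 members of each list with the smallest adjusted p and up to 2 against the main direction of the list, 19 regulators, the 5 most abundant genes of each group and the highest markers of other cell types. Some genes that the rule names are not reported here. Chosen outside that rule, after their values were seen, were Blnk, Cbx7, Cd14, Cd3d, Cd3e, Cd3g, Cd68, Cd69, Cd80, Cd86, Cdc25b, Cdc6, Cdkn1a, Ciita, Eed, Itgam, Jchain, Lyz1, Pdia6, Phf1, Ppbp, Rfx5, St6gal1, Suz12 and Xcr1. Alternatives were another pseudocount, other filters, TMM scaling, quantile normalization, only the 6 libraries, the block for mouse, library weights, no variance trend, voom on the recovered reads, thinning to the shallowest depth and leaving out each library.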

Additional observations from a re-analysis of the deposited data

How the results depend on the processing

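The number of genes past the test was 8693 and stayed within 1.5 times of that in all 20 alternatives, 18 of them planned. It was 8637 with a pseudocount of 0.1, 10300 of 17031 genes with no filter, 7026 of 8239 with a filter of 5 RPKM, 8544 with TMM scaling, 8724 with quantile normalization, 8302 with only the 6 libraries, 8841 with voom on recovered reads and 7116 of 10439 with every library thinned to 1318002 reads. With the replicate block it was 8744, and 8208 with the block and only the 6 libraries. The block changed no call of a named gene in the full fit, and the calls of Fau and Riok3 were lost in the 6 libraries with the block and without it. Leaving out each library in turn gave 8383 to 8762 genes. Of the alternatives chosen after seeing the data, the fit without the CD138+ GSK-J4 library of no known mouse gave 8700 and the 5 libraries without the shallowest naive one gave 8693. Of 273 named genes tested, 261 kept call and direction throughout. Signs turned only for 2 genes that had not passed the test. The log2 change of Eef1a1 went from 0.16 to -0.039 without naive replicate 1, to 0.35 without naive replicate 2, to 0.22 with library weights and to 0.69 with quantile normalization, and it passed the test in the last 3. That of Actb went from -0.033 to 0.0027 with TMM scaling, 0.0018 without naive replicate 3, 0.0024 without GL7+ replicate 1 and 0.088 without naive replicate 2, in the full fit and in the 5 libraries. It passed as lower without naive replicate 1 (-0.19) and with quantile normalization (-0.17). Scaling moved the median change by at most 0.034 on the log2 scale. With quantile normalization, 36 genes passed in the opposite direction. The cause of these changes was not tested.

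Depth limits low genes in naive replicate 2, where 1 RPKM of a gene of median length is 3.56 reads. In the fit on voom values, 3998 genes were at least 2-fold changed against 3324. Changes are relative to all RNA of a library, and short genes (621 under 200 bases in the table), near-identical copies and single ribosomal protein genes are uncertain.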
